A study of Mus musculus with 2 samples.

Results

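The genes described here are those that make immunoglobulin A (IgA) in the lactating mammary gland and carry it into milk. They were chosen by symbol and are 9 of the 33943 genes in the deposited gene list: the heavy chains Igha and Ighm, the light chains Igkc, Iglc1 and Iglc2, the joining chain Jchain, the polymeric immunoglobulin receptor Pigr, the chemokine Ccl28 and its receptor Ccr10. In single nuclei of the gland, Igha, the light chain genes and Jchain were highest in plasma nuclei, Ighm was highest in B nuclei, and in 136 of the 142 plasma nuclei with enough heavy chain molecules the leading heavy chain was Igha. Ccl28 was highest in the milk-making secretory luminal nuclei, Pigr was high there too, and Ccr10 was close to undetected. None of the 9 passed the test of the genotype difference.

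Nuclei were taken from the inguinal fat pad, which holds a mammary gland, of lactating mice on postnatal day 11, after the lymph nodes had been cut out. The groups were 4 dams with an adipocyte-specific knockout of the oxytocin receptor gene Oxtr (labelled Oxtr-KO) and 4 dams with the floxed Oxtr allele (taken here as the hashtags labelled WT, since the labels give no other genotype). The labels do not name the Cre line behind the deletion. Mice were paired at 8 weeks of age, the labels give litters of 4 to 5 pups after standardisation, and a batch label lists 5 pups for 7 dams and 3 pups for 1 dam without tying them to a hashtag, so litter size could not be used. All 8 animals were sequenced in 1 pooled 10x Genomics library of nuclear RNA, and the animal of origin was read from hashtags, barcoded tags that had been added to its nuclei and sequenced beside the RNA.

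Of 18813 clustered nuclei, 13057 had an animal, between 1200 and 1862 in the KO-labelled animals and between 1421 and 1991 in the WT-labelled animals. Their summed unique molecular identifiers (UMIs, 1 per captured RNA molecule) ranged from 5842922 to 10964520 in the KO-labelled animals and from 7376294 to 10741553 in the WT-labelled animals. A further 5479 nuclei carried no called hashtag and were shallower, with a median of 2022 UMIs against 4989 in nuclei with an animal. The targeted gene went against the labels. Oxtr had 4, 5, 5 and 3 UMIs in the adipocyte nuclei of the KO-labelled animals, and 1 UMI in those of each WT-labelled animal. These are normalised counts of 14.3, 13.9, 22.3 and 12.5 CPM (UMIs of the gene scaled to a common total of all UMIs of the same animal and cell type) in the KO-labelled animals, against 4.40, 6.23, 4.96 and 5.46 CPM in the WT-labelled animals. UMIs from outside the deleted part of the gene would check nothing, and the files do not say from which part of Oxtr they come. Animals are therefore named by their labels throughout, and each direction between them is a direction between labels.

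As background, IgA in milk is made by plasma cells that settle in the gland during lactation. Each makes a single class of heavy chain and a single light chain, and the joining chain links IgA into polymers. Epithelial CCL28 attracts these cells through CCR10, and the receptor encoded by Pigr binds polymeric IgA on the tissue side of the epithelium, carries it through the cell and is shed into milk together with it.

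The antibody genes are described first, by the nuclei that carried them. Cell types were named from clusters by marker lists and are plasma-like, secretory luminal-like and so on; the suffix is left out below. The plasma group held 199 nuclei, 72 of them with an animal and 125 with no hashtag (62.8%). The cluster it came from carried 10 of 11 plasma markers, and 42 nuclei with the B cell markers, 8 of 8 of which were detected, were separated from it at a finer resolution. Clustering without the antibody genes, Pigr, Ccl28 and Ccr10 gave 193 plasma nuclei and shared 191 with the first set, 96% of the 199 and 99% of the 193, so that nearly the same plasma nuclei were grouped without the genes described here. This did not hold for the B nuclei. That clustering, run at the coarser resolution only, gave no B group, and 37 of the 42 B nuclei fell among macrophage nuclei. Of the 17 listed genes of the plasma cell programme, 15 had their highest CPM in plasma nuclei, among them Xbp1, a transcription factor of antibody secretion, at 574 CPM and Pou2af1, a coactivator of B-lineage genes, at 211 CPM. The exceptions were Irf4, a transcription factor also used by fat cells, at 819 CPM in adipocyte nuclei and 259 CPM in plasma nuclei, and Mzb1, a chaperone of antibody assembly, with no UMI in any nucleus with an animal. All 11 markers that served to name the cluster are in that list, Pou2af1 among them, so for these the count is no check of the name. The listed genes not used for naming were Xbp1, Tnfrsf13b, Sdc1, Edem1, Hsp90b1 and Ell2, and each was highest in plasma nuclei.

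Igha (ENSMUSG00000095079.7) encodes the heavy chain of IgA. In plasma nuclei it had 1157, 1835, 209 and 3850 CPM in the KO-labelled animals, and 1202, 2103, 1258 and 869 CPM in the WT-labelled animals. The lowest value, in the third KO-labelled animal, rested on 2 plasma nuclei and 3 Igha UMIs. Over all nuclei with an animal, 91.7% of plasma nuclei had an Igha UMI at a median depth of 4213 UMIs, against 7.87% of secretory luminal nuclei, which do not make antibody, at a median depth of 5395 UMIs. Thinned to 1000 UMIs per nucleus, which left out 2 plasma nuclei and no secretory nucleus, these shares were 67.1% and 1.49%. After plasma came pericyte nuclei at 140 CPM, T or NK at 60.6 CPM, hormone-sensing luminal at 54.7 CPM, macrophage at 47.3 CPM, vascular endothelial at 42.8 CPM, B at 34.3 CPM, adipocyte at 34.1 CPM, fibroblast at 31.0 CPM, myoepithelial at 23.0 CPM, luminal progenitor at 17.2 CPM and secretory luminal at 15 CPM. Neighbours in that order had overlapping ranges over animals. The upper places rested on single animals: the second KO-labelled animal held 28 of the 35 Igha UMIs of pericyte nuclei, the first WT-labelled animal 10 of the 19 of T or NK nuclei, the third WT-labelled animal 5 of the 8 of hormone-sensing nuclei and the third KO-labelled animal all 4 of B nuclei. Without that animal the levels were 37.3 CPM in pericyte, 29.5 CPM in T or NK, 23.8 CPM in hormone-sensing luminal and 0 CPM in B nuclei. Plasma was above secretory luminal nuclei in 8 of 8 animals.

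Igkc (ENSMUSG00000076609.3), the kappa light chain, was also highest in plasma nuclei. It had 844, 1939, 487 and 7015 CPM there in the KO-labelled animals, and 2565, 1715, 1533 and 1086 CPM in the WT-labelled animals, which gave a pooled level of 2321 CPM, and it had 23.4 CPM in secretory luminal nuclei, with animals between 16.9 and 29.2 CPM. Jchain (ENSMUSG00000067149.7), which joins IgA or IgM into polymers, had 1032, 716, 69.6 and 1771 CPM in the plasma nuclei of the KO-labelled animals, and 1095, 1327, 1061 and 624 CPM in those of the WT-labelled animals. Its pooled level was 1061 CPM in plasma nuclei and 8.74 CPM in secretory luminal nuclei, with animals between 5.55 and 11.7 CPM. A Jchain UMI was found in 97.2% of plasma nuclei with an animal and in 4.75% of secretory luminal nuclei. Iglc1 (ENSMUSG00000105906.2) and Iglc2 (ENSMUSG00000076937.4), 2 of the lambda light chains, reached 477 and 812 CPM in plasma nuclei, against 1.40 and 2.21 CPM in secretory luminal nuclei. Without the second WT-labelled animal Iglc2 in plasma nuclei was 490 CPM. For each of these 4 genes the lowest plasma value of any animal was above the highest secretory value, except Iglc1, which had no UMI in the plasma nuclei of the fourth WT-labelled animal.

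**Figure D1:**
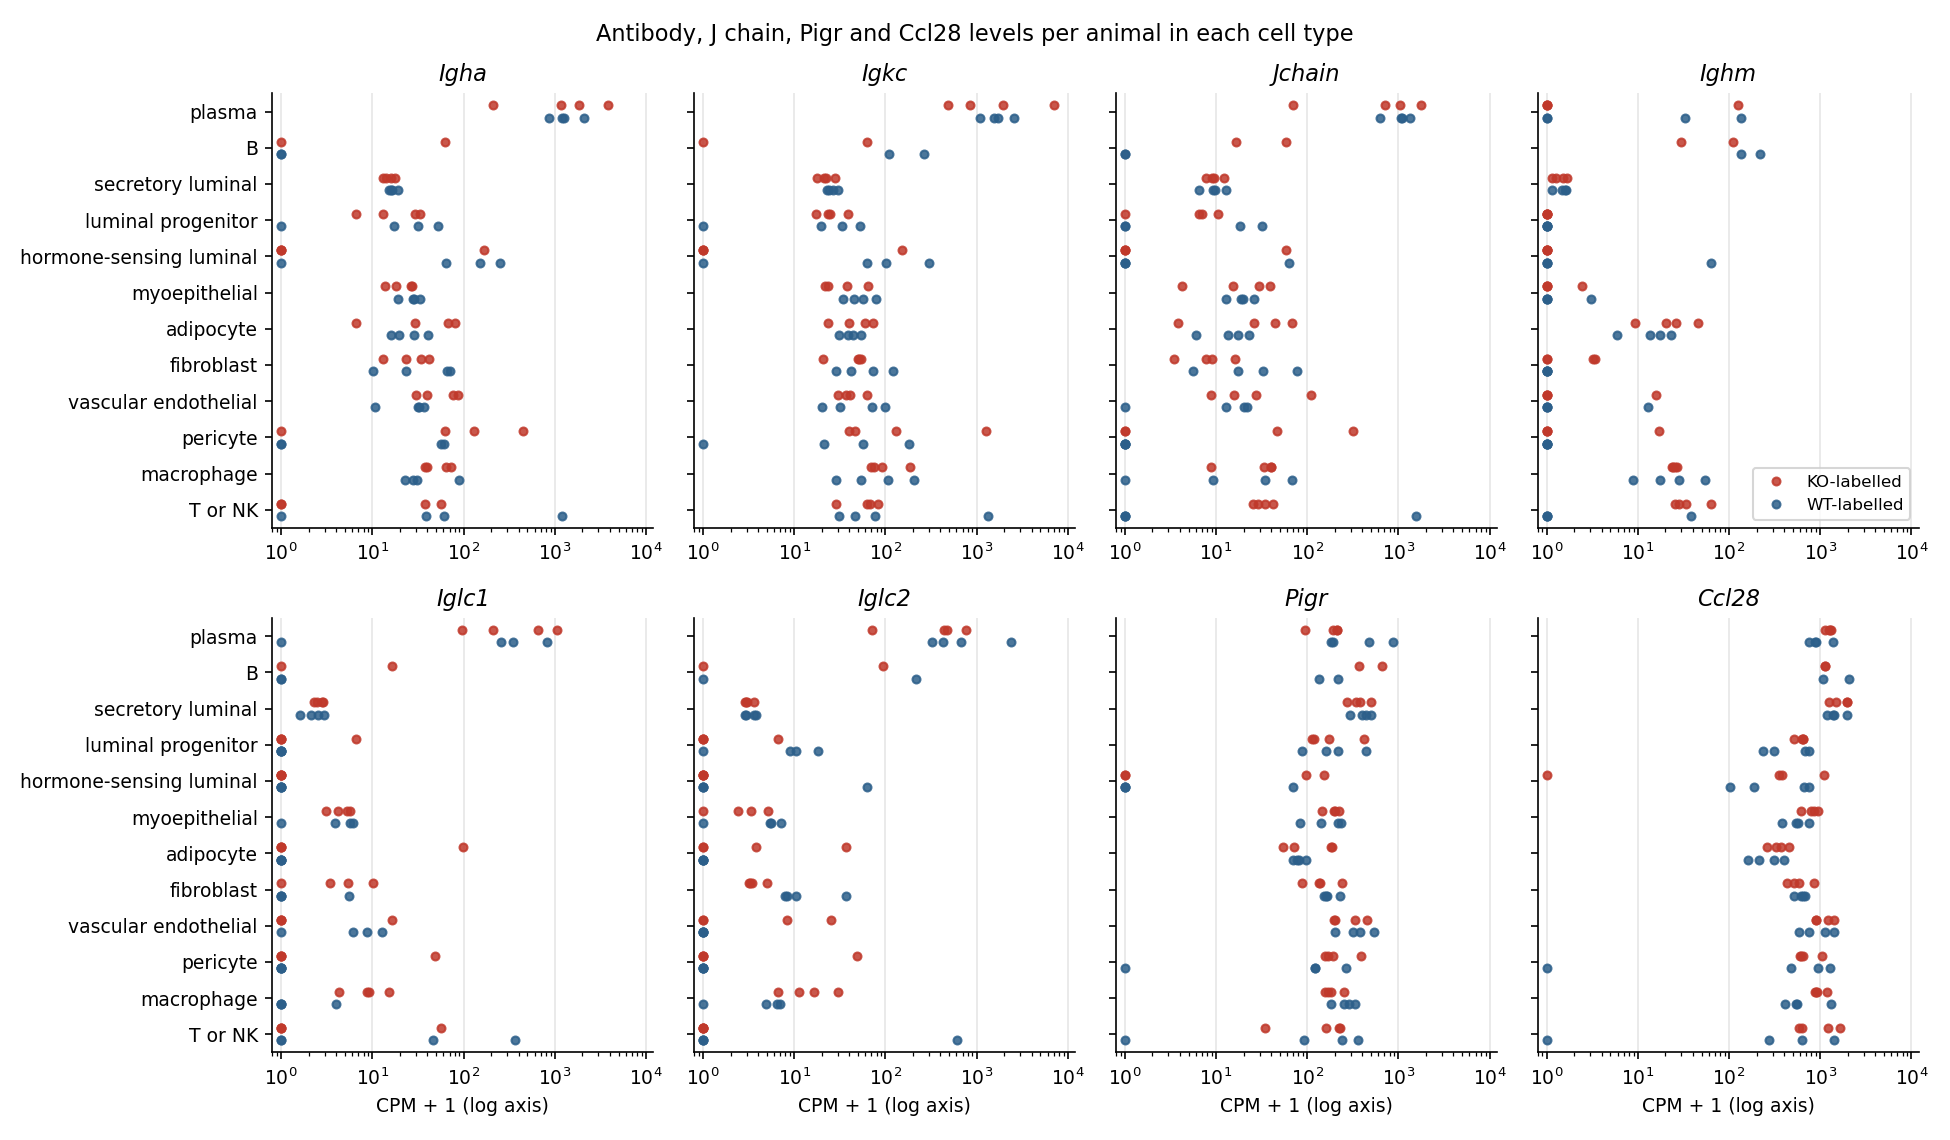
Level of 8 of the 9 genes per animal in 12 cell types, as CPM + 1 on a log axis, with KO-labelled animals as the upper red points and WT-labelled animals as the lower blue points of each row. Igha, Igkc, Iglc1, Iglc2 and Jchain had their highest pooled level in plasma nuclei and Ighm in B nuclei, while Pigr and Ccl28 were spread over all types and Ccl28 was highest in secretory luminal nuclei at 1571 CPM.

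The class of antibody was read in single nuclei. Over all 199 plasma nuclei, Igha gave 1328 UMIs and 88.6% of all heavy chain UMIs, with a median of 4 and a maximum of 49 per nucleus. Ighm, the heavy chain of IgM, gave 72 UMIs, of which 43 lay in 1 nucleus with no hashtag that also held 7 Igha, 6 Igkc and 3 Jchain UMIs. Without that nucleus Ighm had 29 UMIs. Among the IgG classes, Ighg2b gave 71 UMIs in 28 nuclei, and Ighg1, Ighg2c and Ighg3 gave 13, 9 and 6. Ighd and Ighe, the IgD and IgE chains, had none. The heavy chain RNA of these nuclei was thus mostly that of IgA.

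In the 142 plasma nuclei with at least 3 heavy chain UMIs, Igha led in 136, or 95.8% (exact binomial interval 91.0% to 98.4%, which covers counting error only). Ighg2b led in 3, Ighm in 2 and Ighg1 in 1. Of the 56 such nuclei with an animal, 55 were led by Igha (98.2%). The result changed little with the minimum: 172 of 180 nuclei (95.6%) were led by Igha with at least 1 UMI, and 56 of 57 (98.2%) with at least 10 UMIs. B nuclei had another pattern. Among their 79 heavy chain UMIs over 42 nuclei, Ighm gave 35, Ighd gave 33 and Igha gave 11, and of the 12 B nuclei with at least 3 heavy chain UMIs Ighm led in 7, Ighd in 3 and Igha in 2. IgM together with IgD is the pattern of B cells that have not switched class. The B nuclei were grouped with the antibody genes left in, and Ighd and Ighm were among the leading genes of their cluster. Their heavy chain pattern is therefore not independent of the grouping.

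Jchain accompanied Igha in the same nuclei. A Jchain UMI was found in 127 of the 136 nuclei led by Igha (93.4%), at a median of 4 UMIs, and in 5 of the 6 nuclei led by another heavy chain, at a median of 2.5. In the 57 plasma nuclei with fewer than 3 heavy chain UMIs, 41 had a Jchain UMI. Those nuclei were shallower, with a median of 1219 UMIs against 2004 in the nuclei led by Igha. With 6 nuclei in the second class, a difference in Jchain between antibody classes was not detectable at this depth.

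**Figure D2:**
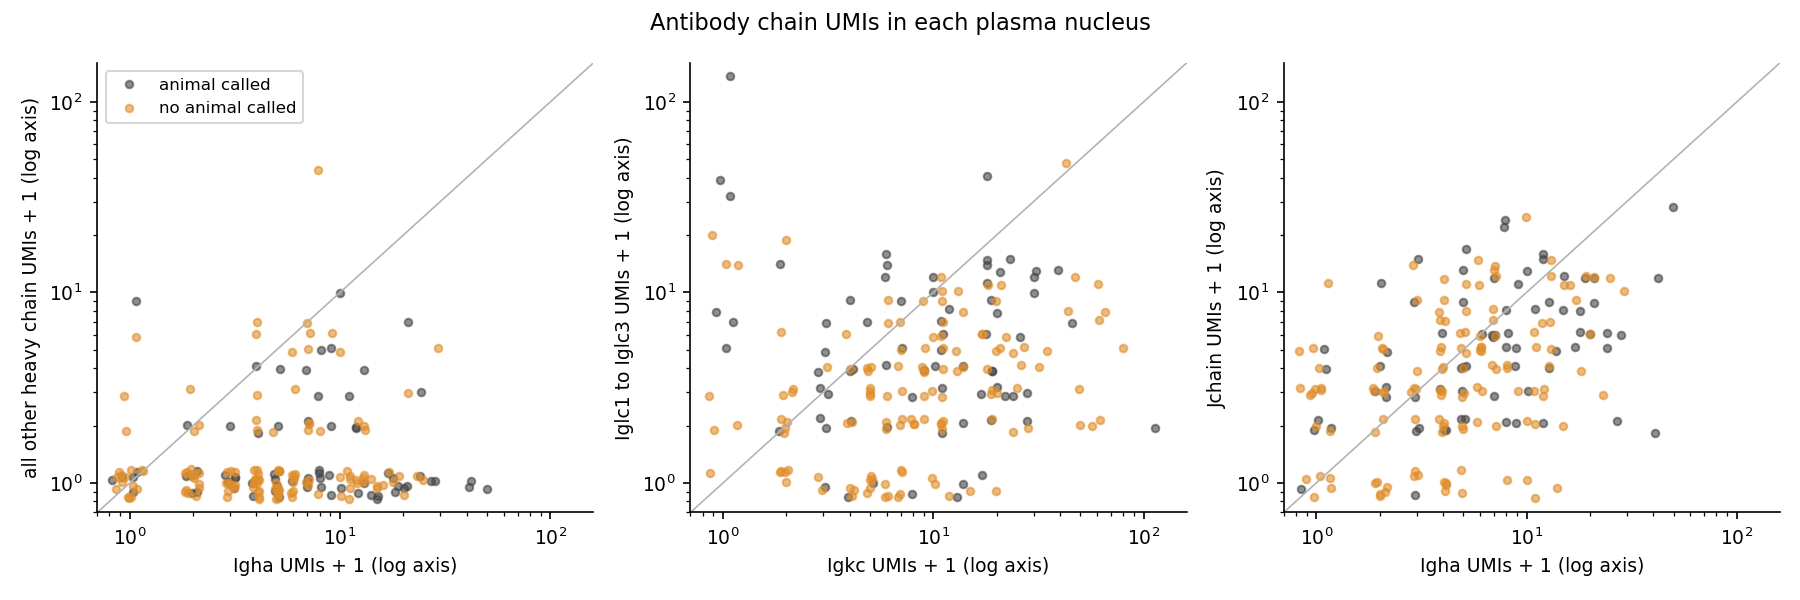
UMIs per plasma nucleus, each point being 1 of the 199 nuclei, as UMIs + 1 on log axes with a small random shift: Igha against all other heavy chains, Igkc against Iglc1 to Iglc3, and Igha against Jchain. Grey points have an animal, orange points have none, and the line marks equal counts. Most nuclei lie along the bottom of the first panel, where Igha stood with no UMI of another heavy chain, while lambda UMIs accompanied Igkc in most nuclei of the second.

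Light chains were shared between kappa and lambda. Igkc gave 2502 UMIs, 71.0% of light chain UMIs in the 199 plasma nuclei, with a median of 8 and a maximum of 112 per nucleus. Iglc2 gave 565 (16%), of which 123 lay in 1 nucleus, Iglc1 gave 298 (8.45%) and Iglc3, another lambda constant gene, gave 160 (4.54%). Of 182 nuclei with at least 3 light chain UMIs, 150 were led by kappa and 32 by lambda (17.6%). Of the 70 such nuclei with an animal, 18 were led by lambda (25.7%). Nuclei were less uniform in light than in heavy chains. Of the 57 nuclei with at least 10 heavy chain UMIs, 44 had at least 90% of them from a single gene, while of the 119 nuclei with at least 10 light chain UMIs, 42 had at least 90% of them from kappa alone or lambda alone. Iglc2 and Iglc3 are near copies, and how reads that match both genes were counted was not examined. The last 300 coding bases of both are printed here to show how few bases tell them apart. They come from the GENCODE M21 transcripts of build GRCm38, read on the minus strand from chr16:19198539-19198838 for Iglc2 and chr16:19065368-19065667 for Iglc3, with the differing bases in capitals.
Iglc2: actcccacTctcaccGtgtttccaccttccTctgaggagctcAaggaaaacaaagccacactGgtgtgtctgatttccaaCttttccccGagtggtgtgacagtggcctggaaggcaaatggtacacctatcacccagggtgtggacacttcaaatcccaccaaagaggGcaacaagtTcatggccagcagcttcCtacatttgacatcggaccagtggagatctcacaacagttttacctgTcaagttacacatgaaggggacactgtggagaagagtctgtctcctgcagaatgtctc
Iglc3: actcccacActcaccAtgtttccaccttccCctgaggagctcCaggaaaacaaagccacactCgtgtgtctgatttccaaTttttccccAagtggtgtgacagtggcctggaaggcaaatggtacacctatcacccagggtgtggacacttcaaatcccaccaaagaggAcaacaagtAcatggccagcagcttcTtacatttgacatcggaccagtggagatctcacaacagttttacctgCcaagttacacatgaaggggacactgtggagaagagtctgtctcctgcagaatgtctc
They differed at 11 of 300 bases (96.3% identity), and the longest identical run was 79 bases. Over the last 120 coding bases Iglc2 and Iglc3 were 98.3% identical, whereas Iglc1 was 68.3% identical to either, so reads of the end of Iglc1 can be told from those of the other pair more readily. Values of Iglc2 are uncertain for this reason.

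Rearranged variable genes were seen in fewer nuclei. Of the plasma nuclei, 55 had at least 2 UMIs of a single kappa variable gene, 15 of a lambda variable gene and 14 of a heavy chain variable gene. The 55 nuclei showed 24 different leading kappa genes, and the 14 nuclei showed 11 heavy chain genes. The leading kappa genes were unequal: Igkv1-110 led in 19 nuclei (34.5%), 16 of them without a hashtag and the other 3 from 1 animal, and Igkv1-117 led in 10 nuclei, 5 without a hashtag and 5 from 3 animals. No nucleus led by the first had a UMI of the second. All 14 Igkv1-110 nuclei with at least 3 heavy chain UMIs were led by Igha, as were 7 of 9 Igkv1-117 nuclei. Iglv1 led in 10 of the 15 lambda nuclei, 6 of which had an animal and came from 5 animals. These genes were picked after their counts were seen, variable genes have close relatives that share reads, and a variable gene read without its junction does not identify a clone.

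Most antibody RNA lay outside the plasma nuclei. Plasma nuclei were 0.551% of the nuclei with an animal and held 657 of 2103 Igha UMIs, so that 68.8% lay elsewhere, 35.0% in secretory luminal nuclei alone. Of Igkc UMIs 72.3% lay outside plasma nuclei, of Jchain 67.7%, of Iglc1 47.3%, of Iglc2 41.6% and of Ighm 90.3%. In secretory luminal nuclei the 737 Igha UMIs were spread over 658 nuclei. The ratios of these genes to each other were compared across types. There were 0.719 Igha UMIs per Igkc UMI in plasma nuclei, 0.639 in secretory luminal, 0.625 in fibroblast, 0.655 in T or NK, 0.517 in myoepithelial and 0.480 in macrophage nuclei. The lowest ratio, 0.389 in pericyte nuclei, was 0.700 (7 Igha and 10 Igkc UMIs) without the second KO-labelled animal, and the highest, 1.14 in hormone-sensing luminal nuclei, rested on 8 Igha and 7 Igkc UMIs. Jchain UMIs per Igha UMI were 0.636 in plasma, 0.585 in secretory luminal, 0.543 in fibroblast and 0.636 in macrophage nuclei. They were 0.703 in adipocyte, 0.5 in vascular endothelial and 0.844 in myoepithelial nuclei, the last from 76 and 90 UMIs (0.958 without the first WT-labelled animal). The lowest value was 0.375 in hormone-sensing luminal nuclei (3 and 8 UMIs), and the highest was 1 in T or NK nuclei (0.667 without the first WT-labelled animal). As background, free RNA from 1 source keeps its genes' counts in a single ratio in every type. The labels say that the pellets of some samples were washed to lower free RNA, without saying which, and its part in these values was not tested.

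Ighm (ENSMUSG00000076617.10) varied more against Igha between types. There were 0.0244 Ighm UMIs per Igha UMI in plasma nuclei, 0.0285 in secretory luminal, 0.0222 in myoepithelial and 0.0190 in fibroblast nuclei, but 0.525 in macrophage, 0.578 in adipocyte, 0.474 in T or NK and 2.75 in B nuclei, the last from 11 Ighm and 4 Igha UMIs. Of the 15 B nuclei with an animal, 10 came from the third KO-labelled animal. In CPM the order was B at 94.4, plasma at 40.6, T or NK at 28.7, macrophage at 24.9 and adipocyte at 19.7, with secretory luminal at 0.426; without the second WT-labelled animal plasma was at 21.4. Over all nuclei of a type, Ighm had 99 UMIs in 80 of 800 macrophage nuclei, 40 UMIs in 24 of 460 adipocyte nuclei and 23 UMIs in 23 of 9089 secretory nuclei. None of these nuclei also had an Ighd UMI. A B cell marker was found in 19 of 80 macrophage nuclei with Ighm (23.8%) and in 168 of 720 without (23.3%). The median depths of these nuclei differed, at 3525 and 2508 UMIs. In adipocyte nuclei the same markers were in 1 of 24 nuclei with Ighm and 5 of 436 without, at median depths of 5213 and 4025 UMIs. The shares were not compared at equal depth. In B nuclei they were in 20 of 20 with Ighm and 20 of 22 without. The part of B cells in the macrophage and adipocyte values was not tested further. In adipocyte nuclei the KO-labelled animals had 25, 19.5, 44.6 and 8.33 CPM of Ighm and the WT-labelled animals 22.0, 12.5, 4.96 and 16.4 CPM, and the groups overlapped (exact two-sided permutation test, p = 0.286, n = 4 each).

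**Figure D3:**
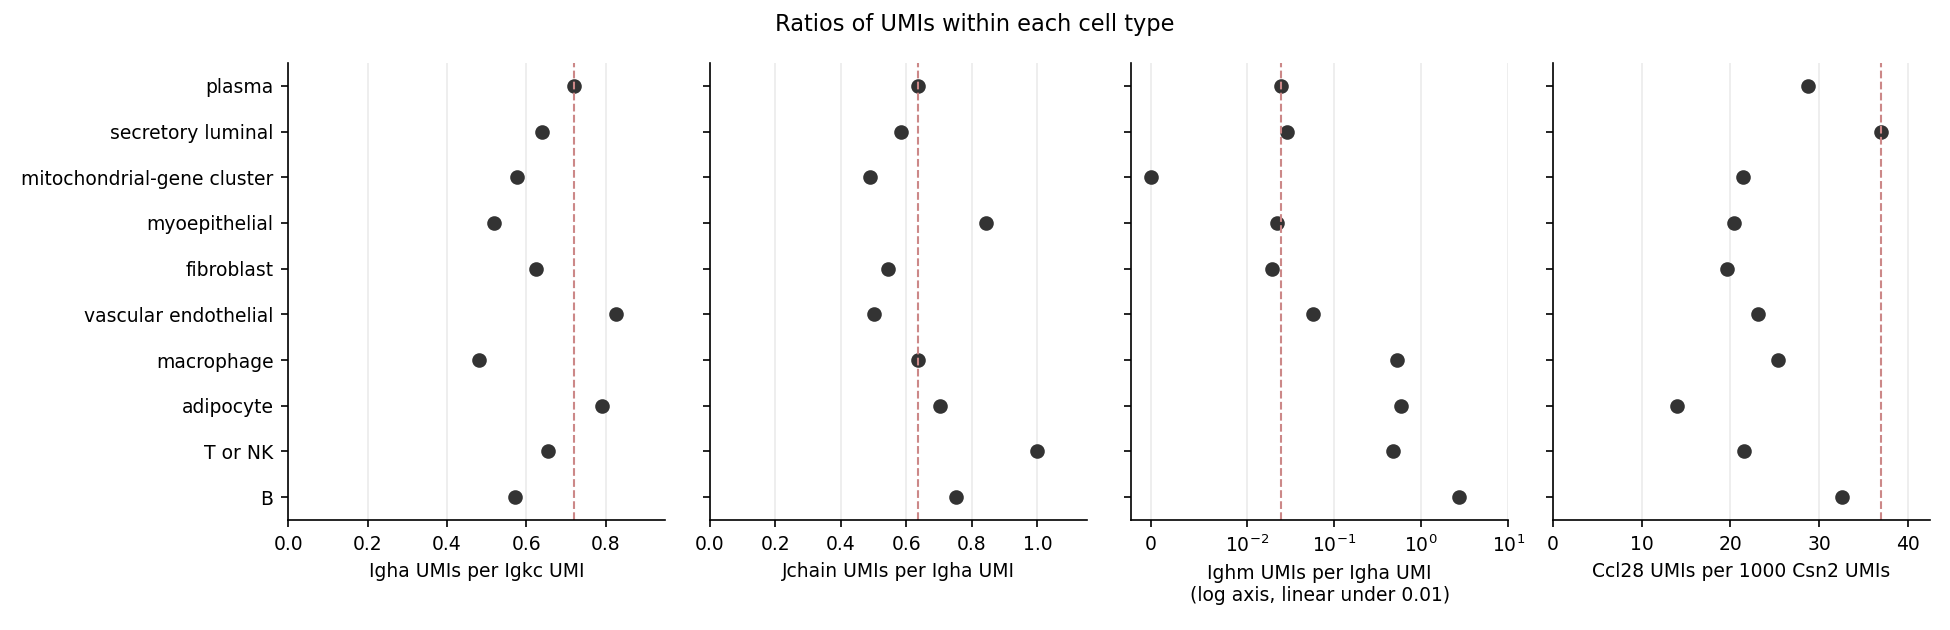
Ratios of UMIs pooled over animals in 10 cell types: Igha per Igkc, Jchain per Igha, Ighm per Igha on a log axis that is linear under 0.01, and Ccl28 per 1000 Csn2. Dashed lines mark the value of plasma nuclei in the first 3 panels and of secretory luminal nuclei in the last. Igha per Igkc was 0.719 in plasma and 0.639 in secretory luminal nuclei, while Ighm per Igha was 0.0190 in fibroblast and 0.578 in adipocyte nuclei.

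On the epithelial side, Ccl28 (ENSMUSG00000074715.4), the chemokine, was detected in nearly all secretory luminal nuclei. In secretory luminal nuclei it had 1233, 1975, 1485 and 1946 CPM in the KO-labelled animals, and 1373, 1952, 1407 and 1184 CPM in the WT-labelled animals. The 2 highest KO-labelled animals and the second WT-labelled animal lay close together, and the groups overlapped. Ccl28 was found in 96.0% of secretory luminal nuclei and in 27.9% of adipocyte nuclei, which should lack it, at median depths of 5395 and 4311 UMIs. At 1000 UMIs per nucleus the shares were 68.5% and 9.78%, and luminal progenitor and myoepithelial nuclei had 24.0% and 24.5%. The clusters led by cell-cycle and by mitochondrial genes, left out of the order below, had pooled levels of 1401 and 1300 CPM. Pooled levels of the named types were 1571 CPM in secretory luminal, 1184 CPM in B, 1115 CPM in plasma, 1049 CPM in vascular endothelial, 881 CPM in T or NK, 872 CPM in macrophage, 770 CPM in pericyte, 683 CPM in myoepithelial, 597 CPM in fibroblast and in luminal progenitor, 472 CPM in hormone-sensing luminal and 321 CPM in adipocyte nuclei. Neighbours in this order overlapped over animals.

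Levels in the non-epithelial types were read beside a milk protein gene, since milk protein RNA was counted in all of them. Csn2, beta-casein, had between 21838 and 60525 CPM in every type and cluster. Ccl28 had 36.9 UMIs per 1000 Csn2 UMIs in secretory luminal nuclei, with animals from 27.0 to 47.9. Nearest to it among the named types were B nuclei at 32.6, below the secretory ratio in 2 of 4 animals, plasma nuclei at 28.7, below in 6 of 8, and macrophage nuclei at 25.4, below in 7 of 8. The ratio was 23.1 in vascular endothelial, 20.4 in myoepithelial, 17.6 in luminal progenitor and 14 in adipocyte nuclei. In each of these last 4 types the ratio was below that of secretory luminal nuclei in 8 of 8 animals. The genes whose level across 12 named types was most like that of Ccl28, among 15802 genes, were Slc28a3 (Pearson r = 0.97), Slc34a2 (0.97), Abcg2 (0.96), Egf (0.96) and Olah (0.96). The types share 1 library, and milk RNA was counted in all of them.

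Pigr (ENSMUSG00000026417.14), the transport receptor, had a flatter distribution. In secretory luminal nuclei it had 269, 494, 343 and 379 CPM in the KO-labelled animals, and 498, 441, 398 and 291 CPM in the WT-labelled animals. The values spread about as widely within each group as between them. Left out of the order below are the clusters led by cell-cycle and by mitochondrial genes, at 368 and 315 CPM, and 1 led by Epsti1, at 765 CPM from 32 UMIs in 9 nuclei. Pooled levels of the named types were 506 CPM in B nuclei, from 59 UMIs in 15 nuclei (309 CPM without the third KO-labelled animal, which held 43 of them and 10 of the nuclei), 396 CPM in secretory luminal, 335 CPM in plasma, 324 CPM in vascular endothelial, 243 CPM in luminal progenitor, 215 CPM in macrophage, 198 CPM in T or NK, 181 CPM in myoepithelial, 159 CPM in fibroblast, 156 CPM in pericyte, 103 CPM in adipocyte and 41.0 CPM in hormone-sensing luminal nuclei. Animal ranges of secretory luminal (269 to 498 CPM) and vascular endothelial nuclei (194 to 539 CPM) overlapped, and a difference between these types within animals was not tested. A Pigr UMI was found in 63.8% of secretory luminal and 22.2% of adipocyte nuclei, and at 1000 UMIs in 24.5% and 7.07%. Luminal progenitor nuclei had 17.2% at that depth.

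Per 1000 Csn2 UMIs, Pigr had 9.31 UMIs in secretory luminal nuclei, 13.9 in B, 8.64 in plasma, 7.14 in luminal progenitor, 7.13 in vascular endothelial, 5.42 in myoepithelial and 4.52 in adipocyte nuclei. The ratio was below the secretory one in 8 of 8 animals in myoepithelial nuclei, in 7 in adipocyte, in 6 in plasma and in luminal progenitor, in 5 in vascular endothelial nuclei, and in 2 of 4 animals in B nuclei. For Pigr the separation of luminal progenitor and endothelial nuclei from the secretory ratio was thus less uniform than for Ccl28. The genes most like Pigr across the 12 types were Stat5a, a transcription factor of prolactin signalling (r = 0.98), Gm15471 (0.97), Gphn (0.97), Nr6a1os (0.96) and Xdh, a protein of the milk fat globule membrane (0.96).

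Among the secretory luminal nuclei, 2 clusters could be compared within each animal, as a description. The cluster led by Clec12a and Elovl5 had a median of 421 CPM of Pigr over animals (324 to 551), and the cluster led by Nupr1 and Ucp3 had 362 CPM (230 to 490). Pigr was higher in the first in 8 of 8 animals, by 1.04 to 1.41 times. Ccl28 had 1533 CPM (1327 to 2120) in the first and 1386 CPM (1152 to 1898) in the second and was higher in the first in 8 of 8 animals, by 1.06 to 1.27 times. Csn2 went the other way, with 39856 and 45783 CPM. Nuclei of the cluster led by mitochondrial genes, which also carried milk genes, had medians over animals of 1171 CPM of Ccl28 and 305 CPM of Pigr.

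Promoter sequences of the 2 epithelial genes are shown because their levels were high in the same nuclei. They are RefSeq sequences on build GRCm38.p6, from 250 bases before to 50 bases after the start site. That of Pigr is chr1:130826434-130826733 and that of Ccl28 is chr13:119623569-119623868, both on the plus strand. Capitals mark 2 searched motifs: TTCNNNGAA, the core letters bound by STAT factors, and CACGTG, the E-box bound by USF factors, each of which reads the same on both strands; the matches found did not overlap.
Pigr: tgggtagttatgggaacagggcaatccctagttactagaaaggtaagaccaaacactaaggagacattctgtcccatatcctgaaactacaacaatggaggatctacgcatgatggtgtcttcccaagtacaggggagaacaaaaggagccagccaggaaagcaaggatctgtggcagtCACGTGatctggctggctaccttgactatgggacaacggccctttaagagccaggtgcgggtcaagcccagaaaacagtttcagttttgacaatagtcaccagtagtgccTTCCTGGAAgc
Ccl28: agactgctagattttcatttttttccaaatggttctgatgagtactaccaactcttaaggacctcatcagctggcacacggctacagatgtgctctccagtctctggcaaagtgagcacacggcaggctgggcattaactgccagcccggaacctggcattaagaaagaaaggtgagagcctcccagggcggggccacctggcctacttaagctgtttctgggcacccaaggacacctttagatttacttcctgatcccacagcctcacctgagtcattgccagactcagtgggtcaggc
The Pigr window holds CACGTG from 71 bases before the start site and TTCCTGGAA, a match to TTCNNNGAA, from 39 bases after it, and the Ccl28 window holds neither. Of 32817 mouse promoters of the same length, 8.29% hold TTCNNNGAA and 7.15% hold CACGTG. A match is a run of letters, not a measured binding site.

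Ccr10 (ENSMUSG00000044052.4), the receptor of CCL28, was at the limit of detection. It had 15 UMIs in all 13057 nuclei with an animal, 7 of them in secretory luminal nuclei, 3 in adipocyte and 2 in myoepithelial nuclei. The 72 plasma nuclei with an animal had none, where a count of 0 allows a UMI in up to 4.17% of such nuclei (3 counts, counting error only), which is no limit on the share that express the gene. The 125 plasma nuclei without a hashtag had 3 UMIs in 3 nuclei, or 14.4 CPM. With nuclei of no hashtag added, plasma nuclei held 3 of 23 Ccr10 UMIs and were 1.06% of the nuclei, and secretory luminal nuclei held 8. These counts are too few to tell what share of plasma nuclei express the gene. The genes most like it across types (Hormad2, Glb1l2, Grin2b, Fitm2 and Cnr1, r from 0.92 to 0.96) rest on those few UMIs.

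Other genes of homing and survival came from lists, and those named here were picked for their level by type. Of the 13 homing genes, Ccr9, the receptor of the chemokine CCL25, was highest in plasma nuclei with 22 UMIs (55.9 CPM), against 4.57 CPM in secretory luminal nuclei. Ccl25 itself had 85.2 CPM in secretory luminal, 84.7 CPM in adipocyte and 63.5 CPM in plasma nuclei. Itga4, an integrin subunit of lymphocyte homing, had 295 CPM in plasma nuclei and 332 CPM in T or NK nuclei, and Cxcr4, a chemokine receptor, had 5 UMIs in plasma nuclei. Among the molecules of vessels and stroma, Vcam1, a ligand of that integrin, was highest in macrophage nuclei (102 CPM), Cxcl12, the ligand of Cxcr4, in fibroblast nuclei (48.5 CPM), and Madcam1, the mucosal vascular addressin, had 12 UMIs in all, mostly in vascular endothelial nuclei at 6.58 CPM. Itgb7, the partner of Itga4, had 1 UMI in plasma nuclei and 95.7 CPM in T or NK nuclei. Of the survival factors, Tnfsf13b, which encodes BAFF, was highest in macrophage nuclei (48.1 CPM), against 3.77 CPM in secretory luminal nuclei.

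The genotype comparison asked whether these genes differed between KO-labelled and WT-labelled animals. Plasma nuclei made up 0.322%, 0.516%, 0.167% and 0.961% of the nuclei of the KO-labelled animals (6, 9, 2 and 14 nuclei), and 0.987%, 0.723%, 0.352% and 0.352% of those of the WT-labelled animals (17, 12, 7 and 5 nuclei). The groups overlapped along most of their length. The means were 0.491% ± 0.344 in the KO-labelled and 0.603% ± 0.310 in the WT-labelled animals (SD, n = 4 each; exact two-sided permutation test, p = 0.629, adjusted p = 0.960). The sign of the difference of -0.112 percentage points turned without the first WT-labelled animal (0.0160) and when B nuclei were kept with plasma nuclei (0.107). The smallest p that 4 against 4 animals allow is 0.0286. The plasma nuclei without a hashtag are in none of these shares, and fewer cells of a type and fewer recovered nuclei cannot be told apart.

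The difference in antibody class was smaller than the spread between animals as well. Igha gave 88.1%, 100%, 75% and 93.1% of heavy chain UMIs in the plasma nuclei of the KO-labelled animals, and 87.5%, 90.4%, 92.8% and 91.4% in those of the WT-labelled animals. The value of 75% rests on 4 UMIs. The means were 89.1% ± 10.6 in the KO-labelled and 90.5% ± 2.23 in the WT-labelled animals (SD, n = 4 each; exact permutation p = 0.829, adjusted p = 0.960), and without the third KO-labelled animal the difference was 3.23 points in place of -1.46. Lambda genes gave 38.6%, 42.5%, 36.4% and 22.5% of light chain UMIs in the KO-labelled animals, and 28%, 66.7%, 42.2% and 27.3% in the WT-labelled animals (exact permutation p = 0.657, adjusted p = 0.960, n = 4 each). The value of 66.7% belongs to the second WT-labelled animal, in which 1 nucleus of 14288 UMIs held 135 lambda, no Igkc, 49 Igha and 27 Jchain UMIs, and without that animal the difference was 2.48 points in place of -6.06.

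**Figure D4:**
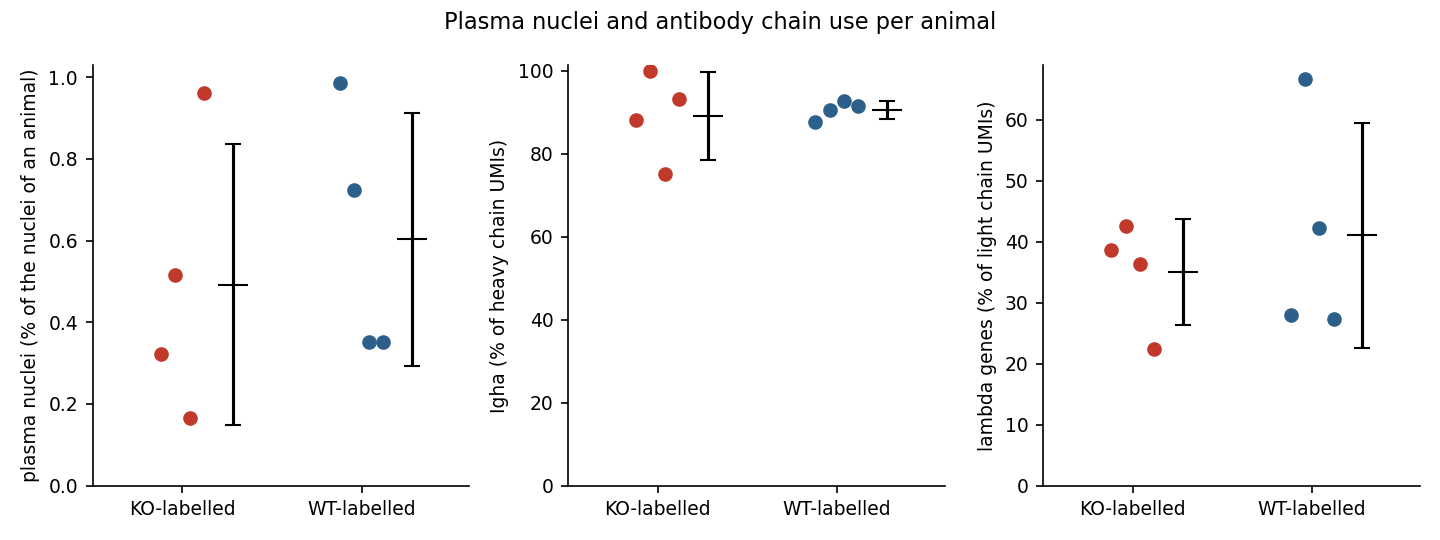
Per animal, the share of plasma nuclei among its nuclei, the share of Igha among heavy chain UMIs and the share of lambda genes among light chain UMIs in plasma nuclei, in percent, for 4 KO-labelled animals at left and 4 WT-labelled animals at right. Bars show the mean and SD. The groups overlap in all 3 panels.

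Levels within plasma nuclei were too few for a fit over all genes and were compared by exact permutation, with adjustment over the 13 values tested this way. Igha averaged 1762 ± 1543 CPM in the KO-labelled and 1358 ± 526 CPM in the WT-labelled animals (SD, n = 4 each, exact p = 0.771, adjusted p = 0.960), and without the fourth KO-labelled animal the difference was -291 CPM in place of 405 CPM. Jchain averaged 897 ± 707 CPM in the KO-labelled and 1027 ± 293 CPM in the WT-labelled animals (exact p = 0.800, adjusted p = 0.960, n = 4 each), and without the third KO-labelled animal the difference was 146 CPM in place of -130 CPM. The adjusted p was 0.960 for each of the other genes, and 1 for Ccr10, which had no UMI. The smallest unadjusted p was that of Ccl28, at 1239 ± 87.2 CPM in the KO-labelled and 967 ± 272 CPM in the WT-labelled animals (exact p = 0.143, n = 4 each). Without the first WT-labelled animal the exact p was 0.0286, the smallest that the remaining animals allow. That was 1 of the runs that each left out 1 animal. Under an alternative rule for calling hashtags the difference had the other sign.

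Over the summed UMIs of all nuclei, edgeR's quasi-likelihood test called 0 of 15072 genes (0%) at an adjusted p under 0.05. At an unadjusted p under 0.05 there were 1271 genes, and 27 passed DESeq2's adjusted test. Of the 9 genes, 8 passed the filter on low counts and 0 were called. Pigr had 245, 413, 306 and 317 CPM in the KO-labelled animals, and 431, 405, 366 and 259 CPM in the WT-labelled animals (log2 fold change -0.26, SE 0.20, adjusted p = 0.720). Ccl28 had 1092, 1659, 1257 and 1646 CPM in the KO-labelled animals, and 1181, 1758, 1283 and 1008 CPM in the WT-labelled animals (log2 fold change 0.04, SE 0.22, adjusted p = 0.974). The groups overlapped for both genes. Igha had 19.9, 32.4, 18.7 and 48.1 CPM in the KO-labelled animals, and 30.8, 37.2, 26.0 and 21.1 CPM in the WT-labelled animals (log2 fold change -0.02, SE 0.30, adjusted p = 0.991). Over the 5 antibody chains and Jchain, log2 fold changes ran from -0.85 for Iglc2 to 0.48 for Iglc1, with edgeR adjusted p from 0.634 to 0.995. The median log2 fold change over the 8 tested members was -0.016, and over all genes tested it was -0.0028.

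In secretory luminal nuclei 0 of 12518 genes were called (0%), 1071 had an unadjusted p under 0.05, and 24 passed DESeq2's adjusted test. None of the 6 tested members was called. For Pigr the log2 fold change was -0.18 (SE 0.22, 95% interval -0.62 to 0.26, adjusted p = 0.841), and for Ccl28 it was 0.12 (SE 0.22, interval -0.31 to 0.56, adjusted p = 0.900). These intervals leave room for a difference of either sign. Luminal progenitor nuclei, with 0 of 2087 genes called (0%; 123 at an unadjusted p under 0.05), held between 12 and 42 nuclei per animal. Pigr there had 113, 170, 119 and 417 CPM in the KO-labelled animals, and 160, 86.2, 442 and 216 CPM in the WT-labelled animals (log2 fold change -0.11, SE 0.45, adjusted p = 0.983). Its sign depended on single animals, since without the third WT-labelled animal the value was 0.50. Ccl28 had 630, 519, 642 and 650 CPM in the KO-labelled animals, and 685, 310, 755 and 232 CPM in the WT-labelled animals (log2 fold change 0.29, SE 0.30, adjusted p = 0.924).

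In myoepithelial nuclei 1 of 6757 genes was called (0.0148%), which was no member. Ccl28 had 619, 938, 795 and 856 CPM in the KO-labelled animals, and 541, 760, 562 and 382 CPM in the WT-labelled animals. Of the KO-labelled animals 3 lay above all WT-labelled animals, and the groups overlapped through the first KO-labelled and the second WT-labelled animal. The log2 fold change was 0.49 (SE 0.18, unadjusted p = 0.0128), and it did not pass after adjustment over all genes (adjusted p = 0.484). Csn2 in the same nuclei had 36638, 33155, 26160 and 36707 CPM in the KO-labelled animals, and 33280, 31145, 30300 and 37154 CPM in the WT-labelled animals. Per 1000 Csn2 UMIs, Ccl28 had 16.9, 28.3, 30.4 and 23.3 in the KO-labelled animals, and 16.2, 24.4, 18.6 and 10.3 in the WT-labelled animals, and the part of secretory RNA in this value was not tested. Pigr had a log2 fold change of 0.13 in these nuclei (SE 0.23, adjusted p = 0.949), and -0.10 without the fourth WT-labelled animal.

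**Figure D5:**
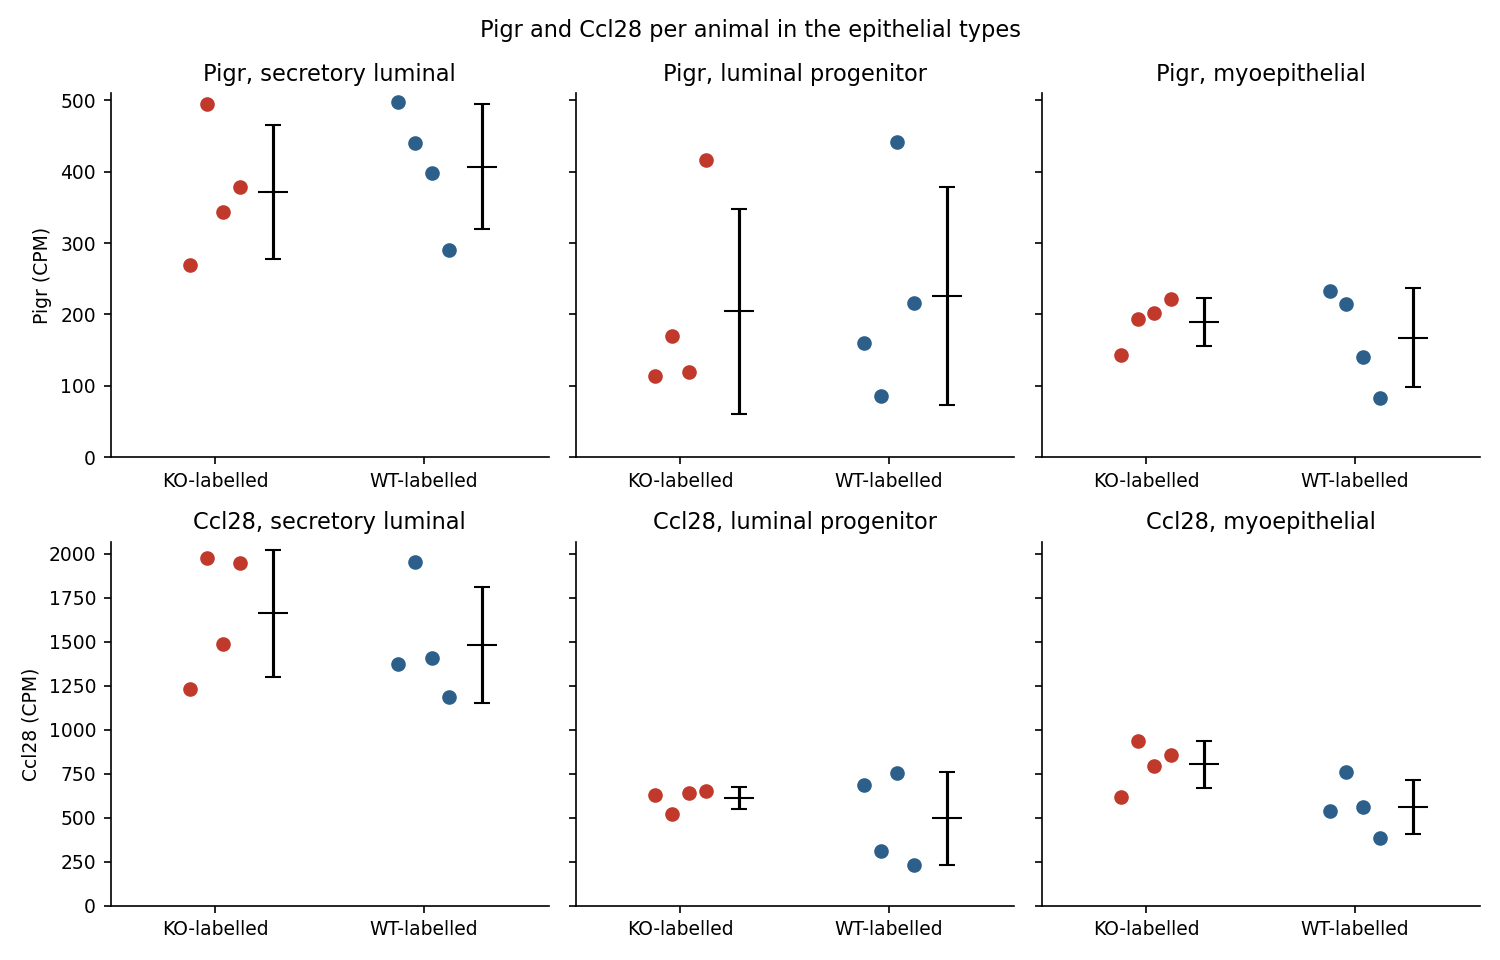
Pigr and Ccl28 in CPM per animal in secretory luminal, luminal progenitor and myoepithelial nuclei, with 4 KO-labelled animals at left and 4 WT-labelled animals at right of each panel and the mean and SD as bars. The groups overlap in all 6 panels, and the highest values are those of Ccl28 in secretory luminal nuclei, up to 1975 CPM.

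In the other types tested, edgeR called 0 of 3883 genes in adipocyte (0%), 0 of 6473 in fibroblast (0%), 1 of 2410 in vascular endothelial (0.0415%) and 0 of 5393 in macrophage nuclei (0%). At an unadjusted p under 0.05 there were 298, 344, 102 and 389 genes, and no member was called. Among members the smallest unadjusted p in these types was that of Pigr in macrophage nuclei, with a log2 fold change of -0.49 (SE 0.22, unadjusted p = 0.0379, adjusted p = 0.655); the KO-labelled animals had 166, 180, 254 and 156 CPM, and the WT-labelled animals 286, 249, 337 and 179 CPM, with overlap. Without the filter on low counts 1 member passed in adipocyte nuclei, Iglc1 (log2 fold change 5.59, adjusted p = 0.0023), whose 27 UMIs in adipocyte nuclei with an animal all lay in a single nucleus of the first KO-labelled animal. That nucleus also held 9 Jchain and 5 Igha UMIs.

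The rest of the pathway was read from lists. Receptor transcytosis is the path that carries Pigr and its cargo, but its list also holds Fcgrt and B2m, which encode a receptor of IgG. Of its 20 genes 18 were tested in secretory luminal nuclei and 0 were called. An unadjusted p under 0.05 was found for 4 of the 18, B2m among them, and for 1071 of all 12518 genes tested. In the KO-labelled animals 11 were higher and 7 lower, with a median log2 fold change of 0.084 against -0.0089 over all genes tested. The smallest p were those of Rab27a, a GTPase of secretory vesicle docking (means of 56.5 CPM in the KO-labelled and 42.8 CPM in the WT-labelled animals; log2 fold change 0.35, adjusted p = 0.562), and Pik3c3, a lipid kinase of endosomes (log2 fold change 0.59, adjusted p = 0.568). Of 19 listed genes of the transcriptional and cytokine control of Pigr, all 19 were tested, 0 were called and 1 had an unadjusted p under 0.05, with 8 higher, 11 lower and a median of -0.038. Irf1, an interferon-induced factor known to act on the Pigr gene, had 10.2 ± 2.19 CPM in the KO-labelled and 16.6 ± 6.07 CPM in the WT-labelled animals (SD, n = 4 each; log2 fold change -0.75, SE 0.28, edgeR adjusted p = 0.562). Stat5b, a mediator of prolactin signalling, had a log2 fold change of 0.34 (adjusted p = 0.589).

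The immune lists were read in all nuclei, where most UMIs of the genes checked for this came from secretory luminal nuclei. These held 14760 of 20022 Xbp1, 3239 of 4577 Txndc5 and 10871 of 15164 Tgfbr2 UMIs. Plasma nuclei held 226, 187 and 79 of them, so these values are not those of plasma cells. Of 17 plasma cell genes 15 were tested and 0 called, with 6 higher, 9 lower and a median log2 fold change of -0.017; Xbp1 had -0.36 (adjusted p = 0.647) and Txndc5, a folding enzyme, -0.30 (adjusted p = 0.652). Of 13 homing genes 9 were tested and 0 called, with a median of 0.030; Ccl25 had -0.13 (adjusted p = 0.680) and Itgb7, the partner of Itga4, 0.50 (adjusted p = 0.773). Of 15 genes of IgA switching and plasma cell survival 6 were tested and 0 called, with a median of 0.076. In that list Tgfbr2, a receptor of TGF-beta, which drives the switch to IgA, had 170 ± 11.4 CPM in the KO-labelled and 245 ± 23.9 CPM in the WT-labelled animals, was lower in 4 of 4 KO-labelled animals than in any WT-labelled animal and had a log2 fold change of -0.59 (SE 0.12, unadjusted p = 0.000573), which did not pass over all genes (edgeR adjusted p = 0.504). In secretory luminal nuclei alone Tgfbr2 had a log2 fold change of -0.61 (edgeR unadjusted p = 0.000804, adjusted p = 0.541). Tgfbr1 had 0.08 in all nuclei (edgeR adjusted p = 0.788). Of the other antibody constant genes only Iglc3 had enough UMIs for the test (log2 fold change -0.53, adjusted p = 0.784). The genes most like Igha across the 12 types were Jchain (r = 0.98), Igkc (0.98), Cacna1h (0.96), Edem1, a factor of protein quality control (0.92), and 5830418P13Rik (0.89). Those most like Jchain were Igkc, Igha, Cacna1h, Edem1 and Iglc1.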

How the data were processed

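The authors deposited raw UMI counts per gene and nucleus and a table of hashtag counts. Reads had been processed with fastp and then counted by Cell Ranger 7.2.0 on GRCm39, per the submitters' processing notes, which do not state whether introns were counted. Nuclei with at least 500 UMIs, 300 genes and under 5% mitochondrial UMIs were kept (20854 of 21805), and animals were called with HTODemux (Seurat 5.3.0, quantile 0.99) on 9 hashtags, which removed 2041 nuclei with several; Scrublet marked 1 nucleus and so did not work. Clusters came from scanpy 1.11.5 (2000 variable genes, 30 components, resolution 0.5) in Python 3.11.15 and were named by marker lists; B nuclei were separated at resolution 1 after the clusters were seen. UMIs were summed per animal and type. They were tested with edgeR 4.0.16 in R 4.3.3 (quasi-likelihood, TMM, filterByExpr, genotype alone, Benjamini-Hochberg, 0.05) where at least 3 animals per genotype had 10 nuclei, with DESeq2 1.42.0 as an alternative. Other values were compared by exact permutation over all splits of the animals. Binomial intervals were computed with scipy 1.17.1. Levels by type have no test, since the clusters were made from the same nuclei. CPM are counts scaled to a common total per animal and type, and intervals cover counting error only. Fits were checked on simulated data. Named genes are the 9 members, called genes of each list or else its 2 smallest p, and the 5 genes most like Igha, Jchain, Pigr, Ccl28 and Ccr10 by Pearson correlation of log2(CPM + 1) across named types among genes with at least 50 UMIs. Further list genes were named outside that rule, for their level by type. Members and lists were chosen with earlier results of these data known.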

Additional observations from a re-analysis of the deposited data

Results flagged for a closer look

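Dixon's test at 95% was run on 56 groups of 4 animals and marked 3, where chance alone marks about 1 group in 20. Ighm in plasma nuclei was 125 CPM in the first KO-labelled animal and 0 in the other 3 KO-labelled animals; it rests on 4 UMIs among 6 nuclei. Iglc2 in plasma nuclei was 2386 CPM in the second WT-labelled animal, against 326 to 668 CPM in the other 3 WT-labelled animals. Ccl28 in luminal progenitor nuclei was 519 CPM in the second KO-labelled animal, against 630 to 650 CPM in the other 3 KO-labelled animals.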

How the results depend on the processing

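No member was called in any of 8 sets of nuclei under any alternative run, except Iglc1 in adipocyte nuclei without the filter on low counts (1 member). The counts of called genes were less stable. DESeq2 called 27 genes in all nuclei, 24 in secretory luminal, 2 in adipocyte and 7 in macrophage nuclei. Without the filter on low counts edgeR called 8 in luminal progenitor, 56 in myoepithelial, 88 in adipocyte, 18 in fibroblast, 33 in vascular endothelial and 63 in macrophage nuclei. The calls in myoepithelial nuclei fell to 0 with hashtag log ratios within barcodes, the hashtag ratio rule, or the highest Scrublet scores removed, and those in vascular endothelial nuclei to 0 under the first and last of these. Leaving out 1 animal at a time gave 0 to 14 called genes in all nuclei, 0 to 51 in secretory luminal, 1 to 11 in myoepithelial, 0 to 44 in adipocyte, 0 to 2 in fibroblast, 0 to 1 in vascular endothelial and 0 to 12 in macrophage nuclei; the highest counts, apart from vascular endothelial, came without the fourth WT-labelled animal. Whether the numbers of the hashtags pair the animals was left undecided, and the main fits used genotype alone. In secretory nuclei the deviations of same-numbered animals had correlations of 0.23, -0.03, 0.24 and 0.13. The animals labelled KO1, KO3 and KO4 correlated best with the WT-labelled animal of the same number, while KO2 correlated best with WT1, at 0.38. Of the WT-labelled animals, WT3 and WT4 correlated best with their own number, and WT1 and WT2 did not. With the replicate block 29 genes were called in myoepithelial, 9 in adipocyte and 1 in fibroblast nuclei, and no call changed among members. The cause of these shifts was not tested.

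Differences between KO-labelled and WT-labelled animals in single values, none of which passed the test, often changed sign. The unsplit plasma cluster, the secretory nuclei joined with the mitochondrial-gene cluster the restriction to nuclei with an animal and the pooled levels without the animal that holds most UMIs were alternatives chosen after seeing the data. Leaving out 1 animal at a time gave -0.268 to 0.0160 percentage points for the share of plasma nuclei, -5.10 to 3.23 for the Igha share and -10.6 to 2.48 for the lambda share, and in plasma nuclei -291 to 922 CPM for Igha, -41.6 to 20.5 for Ighm, -635 to 1541 for Igkc, -38.5 to 303 for Iglc1 and -421 to 146 for Jchain. As log2 fold changes it gave -0.35 to 0.16 for Igha, -0.43 to 0.21 for Igkc, -0.39 to 0.042 for Jchain and -0.094 to 0.24 for Ccl28 in all nuclei, and -0.81 to 0.50 for Pigr in luminal progenitor and -0.10 to 0.37 in myoepithelial nuclei. With all 10 hashtags the Igha share differed by 6.46 points, the lambda share by 7.49 points, Igkc in plasma nuclei by -141 CPM, and Pigr in luminal progenitor nuclei by 0.025 on the log2 scale. With the hashtag ratio rule the Igha share differed by 0.0691 and the lambda share by 27.0 points, plasma levels by -541 CPM (Igha), -440 CPM (Igkc), 179 CPM (Iglc2) and -153 CPM (Ccl28), and log2 fold changes were 0.047 (Igkc, all nuclei) and -0.71 (Pigr, myoepithelial). With hashtag log ratios within barcodes Ighm differed by 24.9 and Iglc1 by -45.8 CPM in plasma nuclei, and log2 fold changes were -0.22 (Iglc1, all nuclei) and -0.076 (Ccl28, luminal progenitor). Resolution 1.0 gave -82.0 CPM for Igha in plasma nuclei, clustering without the members -0.054 for Ccl28 in luminal progenitor nuclei, removal of the highest Scrublet scores 0.027 for Igha and 0.044 for Igkc in all nuclei, and the plasma cluster not split 0.107 points for the share of plasma nuclei. Without the first WT-labelled animal Ccl28 in plasma nuclei differed by 404 CPM, past an unadjusted 0.05 at the smallest p that the remaining animals allow. With nuclei of no hashtag added, the share of UMIs outside plasma nuclei was 62.5% for Igha, 60.3% for Igkc and 58.2% for Jchain. Of the other alternative values, pooled levels by type aside, 713 kept their direction and side of the threshold or, for values with no test, moved by less than the spread. The myoepithelial Ccl28 value was past the threshold under no alternative run. Luminal progenitor nuclei could not be fitted under the ratio rule, where too few animals had enough nuclei. The few plasma nuclei per animal, 2 to 17, limit every value on plasma nuclei, and with 15 UMIs Ccr10 is limited by depth in all types.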

Other observations

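Nuclei outside the 2 genotypes carried the same genes. The 277 nuclei of a hashtag named as an unknown sample, which belong to no group, had 155 Ccl28 UMIs (94.7 CPM), 47 Pigr UMIs (28.7 CPM), 72 Igha UMIs (44.0 CPM), 155 Igkc UMIs (94.7 CPM) and 26 Jchain UMIs (15.9 CPM), beside 14513 CPM of Csn2. Of these nuclei, 240 lay in a cluster led by Nrg3.

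The plasma nuclei without a hashtag were shallower than those with an animal, with a median of 1429 UMIs against 4213, and had higher normalised counts of antibody genes. Igha was 3138 CPM in the 125 plasma nuclei without a hashtag and 1668 CPM in the 72 with an animal, Igkc 7375 and 2321 CPM, and Jchain 2274 and 1061 CPM. Ccl28 ran the other way, at 369 CPM without a hashtag and 1115 CPM with an animal.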
